A study of Mus musculus with 10 samples.

Results

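The alcohol dehydrogenase (Adh), aldehyde dehydrogenase (Aldh) and aldo-keto reductase (Akr) genes were examined in regenerating mouse liver with and without Arid1a in its hepatocytes. The members were all rows of the expression table whose symbol starts with Adh, Aldh or Akr followed by a digit. Left out of them were 7 named genes (Akr1b8, Akr1d1, Akr1c6, Aldh1a1, Aldh1l1, Aldh1l2 and Aldh4a1). This gave 36 of the 23847 rows, of which 6 were Adh, 16 Aldh and 14 Akr genes. The KO livers carried Arid1a Fl/Fl and the Alb-cre transgene. The WT livers carried Arid1a Fl/Fl without the transgene, so both groups shared the floxed allele and neither tells what the Cre transgene does alone. All animals were of a C57/B6 and 129 mix at postnatal day 90, and all livers were taken 40 h after partial hepatectomy, an operation that takes away most liver lobes and brings the remaining hepatocytes back into the cell cycle. There were 3 KO and 3 WT libraries, and the 4 libraries of livers before the operation were not analysed here. Alb-cre acts in hepatocytes, and liver cells in which it is not active keep Arid1a. This gene encodes a subunit of SWI/SNF, a complex that moves nucleosomes. The labels do not say that each library is a separate mouse, and p-values then measure only the spread between these libraries.

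Alcohol dehydrogenases are cytosolic zinc enzymes that oxidise alcohols such as ethanol and retinol to aldehydes with NAD. Aldehyde dehydrogenases oxidise the aldehydes to acids, in mitochondria, cytosol or membranes, and several of them are steps of amino acid breakdown rather than of alcohol clearance. Aldo-keto reductases mostly run the other way and reduce aldehydes, sugars and ketosteroids with NADPH. Liver is a main site of all these families, and several of their genes lie in clusters of close relatives on a chromosome.

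Levels are in FPKM, which divides a gene's fragments by its length and by the size of the library, so that genes can be compared. Differences between groups are KO minus WT on the scale of log2(FPKM + 1), tested with limma over all genes with a mean of at least 1 FPKM and adjusted over all of them, with a call at an adjusted p of 0.05. Absolute depth is unknown, and relative depth ranged from 0.844 to 1.22 times that of WT replicate 1. Arid1a was 4.41, 5.57 and 6.15 FPKM in KO, against 8.68, 8.45 and 8.49 FPKM in WT, with no overlap (exact two-sided permutation p = 0.1, the smallest this design allows). Albumin and the other 7 hepatocyte markers found were abundant in every library, with a summed level of 38412 to 47139 FPKM in KO and 42879 to 47956 FPKM in WT. KO replicate 2 stood apart from the other KO libraries. Its 7 proliferation markers summed to 11.6 FPKM, against 211 and 340 in KO replicates 1 and 3, and against 12.6, 7.13 and 30.9 in WT replicates 1, 2 and 3.

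Adh1 and Aldh2, the pair of enzymes that take ethanol through acetaldehyde to acetate, were the most abundant members. Adh1 ranked 81 by mean FPKM among all genes of the table and Aldh2 ranked 200. Akr1a1, which encodes aldehyde reductase, was the third member above 100 FPKM, and 20 of the 36 had a mean of at least 10 FPKM. At the other end, 3 members (Adh6a, Aldh3a1 and Akr1cl) were listed at 0 in all 6 libraries, and 11 in all had a mean under 1 FPKM and were not tested. Summed over the 36 genes, the members were 1793, 1502 and 1768 FPKM in KO, against 1951, 1745 and 2179 FPKM in WT. The groups overlapped in this sum. Adh1 alone was 34.4%, 27.7% and 30.5% of it in KO, against 42.4%, 41.2% and 40.3% in WT, and without Adh1 the other members summed to 1176, 1086 and 1228 FPKM in KO and 1124, 1027 and 1301 FPKM in WT.

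**Figure D1:**
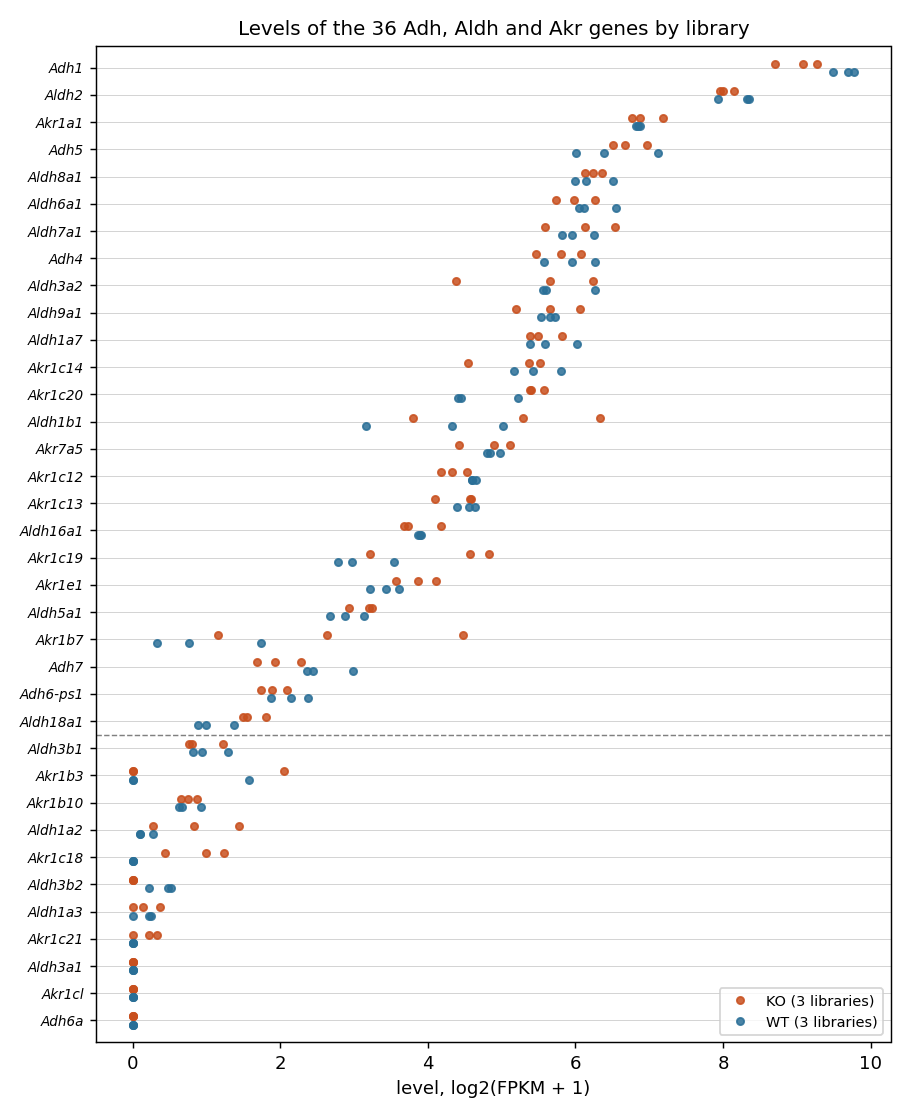
Level of each of the 36 genes as log2(FPKM + 1) on the x axis, with 1 point per library (3 KO, 3 WT) and genes sorted by mean FPKM. Genes below the dashed line had a mean under 1 FPKM. Adh1 and Aldh2 stand at the top, Adh6a, Aldh3a1 and Akr1cl are listed at 0, and the KO and WT points overlap for most genes.

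None of the 25 members tested passed the adjusted threshold, where 0.119% of all 10956 genes tested did (0.0183% higher and 0.1% lower in KO). Their adjusted p ranged from 0.271 to 0.994. At limma's unadjusted p of 0.05, 5 members or 20% passed, against 15.2% of all genes tested. Akr1c20, Akr1c19 and Aldh18a1 were higher in KO among these, in a background of 11.2% of genes, and Adh1 and Adh7 were lower, in a background of 3.99%. For 5 members, also 20%, all libraries of one genotype lay on one side of all of the other, against 22.1% of all genes. Akr1c20 and Aldh18a1 were wholly higher in KO (16.7% of all genes were), and Adh1, Adh7 and Akr1c12 wholly lower (5.44% of all genes were). The either-direction shares are close to those of all genes. Median-of-ratios rescaling left 2 members wholly higher and 3 wholly lower in KO, against 8% and 9.67% of all genes, and quantile normalization left 1 and 4, against 7.5% and 10.2%. Under limma's unadjusted p of 0.05, 1 member was higher and 3 were lower in KO after either rescaling. Of all 10956 genes tested, 1322 lay under it after the first rescaling and 1318 after the second, in either direction. The median log2 difference of the tested members was -0.03, against 0.15 for all genes tested, so that 17 members lay at or below the median of all genes and 8 above it. After median-of-ratios rescaling of the libraries these medians were -0.17 for the members and 0.02 for all genes. For 15 members the log2 difference was under 0.3 in size, with a median SE of 0.22 over the 25. The interval of a single gene still allows sizeable differences: for Aldh8a1, with a log2 difference of 0.03, the 95% interval was -0.43 to 0.48.

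**Figure D2:**
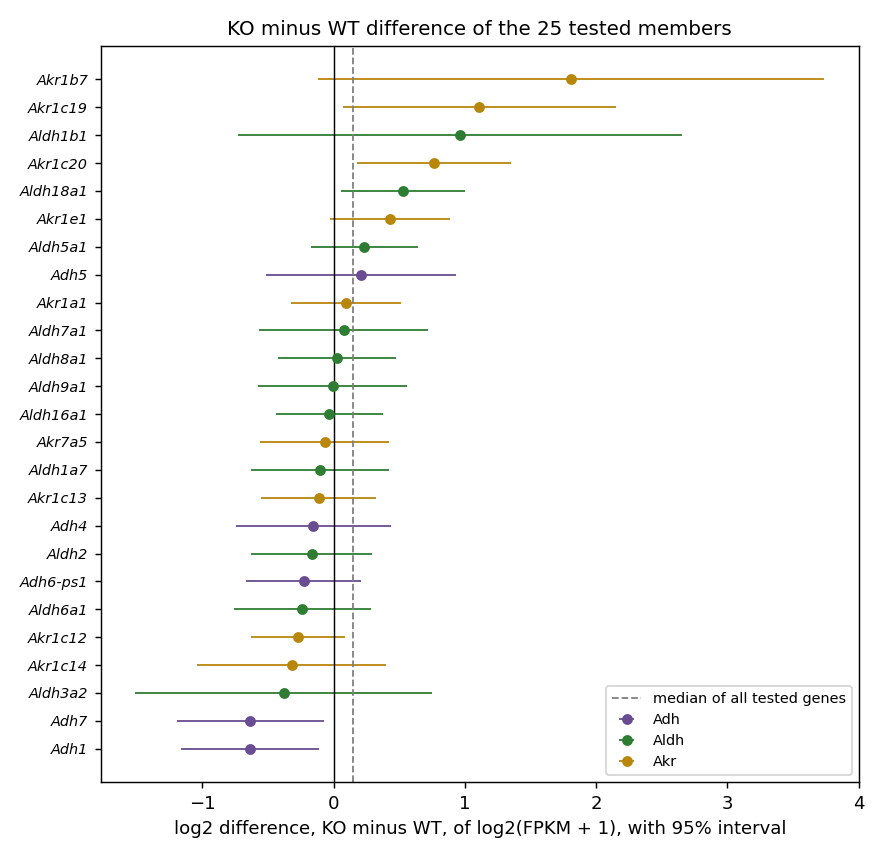
KO minus WT difference of log2(FPKM + 1) for the 25 tested members, sorted, with 95% intervals and colours for the 3 families. The dashed line is the median of all tested genes (0.15). The intervals of Akr1c20, Akr1c19, Aldh18a1, Adh7 and Adh1 leave out 0 before adjustment, and no member passed after it.

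Adh1 encodes the class I alcohol dehydrogenase, the main ethanol-oxidising enzyme of liver cytosol. It was 617, 416 and 540 FPKM in KO, against 826, 718 and 878 FPKM in WT. Every KO library lay below every WT library, and KO replicate 2 was the lowest. The means were 524 ± 101 FPKM in KO and 808 ± 81.6 FPKM in WT (SD, n = 3 each). The log2 difference was -0.64 (SE 0.22, limma adjusted p = 0.287). With any 1 library left out the difference lay between -0.76 and -0.48. Adh7, the class IV enzyme known for retinol oxidation and for its high level in stomach epithelium, was 3.88, 2.80 and 2.21 FPKM in KO, against 4.44, 6.93 and 4.15 FPKM in WT. These groups did not overlap either (log2 difference -0.63, SE 0.23, limma adjusted p = 0.306). Of 5 stomach and gut markers, Gkn1, Muc5ac and Cdx2 were at 0 in all 6 libraries, and the list summed to 55.8 to 184 FPKM in KO and 47.6 to 53.2 FPKM in WT, nearly all of it Fabp2. The Adh7 locus lies wholly inside another locus of the table, 0610031O16Rik, which was 1.19, 1.94 and 2.05 FPKM in KO and 3.86, 1.90 and 4.02 FPKM in WT, so which of them a read came from is uncertain.

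Adh1 and Adh7 are neighbours on chromosome 3, 45.6 kb apart (mm10, 138277645 to 138290691 and 138217773 to 138232042). The 250 bases before the RefSeq start of each gene (GRCm38.p6, plus strand, chr3:138277335-138277584 for Adh1 and chr3:138217523-138217772 for Adh7) are shown. Adh1 and Adh7 were chosen as the tested members with the lowest log2 differences. Capitals would mark TGACNNNGC, the core of the antioxidant response element, and GCGTG, the core of the aryl hydrocarbon receptor element, on either strand.
Adh1: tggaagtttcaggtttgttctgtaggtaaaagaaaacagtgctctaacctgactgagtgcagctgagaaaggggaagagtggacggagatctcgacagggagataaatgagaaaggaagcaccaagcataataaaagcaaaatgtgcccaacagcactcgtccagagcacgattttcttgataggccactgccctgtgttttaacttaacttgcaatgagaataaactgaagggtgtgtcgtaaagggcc
Adh7: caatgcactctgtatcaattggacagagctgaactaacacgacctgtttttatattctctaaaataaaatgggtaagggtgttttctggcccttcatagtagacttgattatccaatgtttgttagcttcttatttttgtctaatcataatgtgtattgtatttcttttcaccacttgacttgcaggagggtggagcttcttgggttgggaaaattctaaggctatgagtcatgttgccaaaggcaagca
Neither window holds either motif. Among all 32851 RefSeq windows of this length, 10.2% hold the first motif and 28.2% the second.

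The other Adh genes of the cluster, which spans 237.7 kb, lay closer to 0. Adh5, the class III enzyme that clears formaldehyde bound to glutathione, was 101, 90.1 and 124 FPKM in KO, against 83.0, 63.6 and 138 FPKM in WT. Its KO libraries lay within the WT range (log2 difference 0.21, SE 0.30, limma adjusted p = 0.755). Adh4, the class II enzyme, was 66.5, 43.1 and 54.7 FPKM in KO, against 46.6, 61.1 and 76.3 FPKM in WT, and the groups overlapped. Adh6-ps1, a pseudogene by its name that lies between Adh6a and Adh4, was 2.76 ± 0.461 FPKM in KO and 3.42 ± 0.766 FPKM in WT (SD, n = 3 each). Adh6a, between Adh1 and Adh6-ps1, was listed at 0 throughout. Along the chromosome the log2 differences were -0.63 for Adh7, -0.64 for Adh1, -0.23 for Adh6-ps1, -0.15 for Adh4 and 0.21 for Adh5. Single libraries moved each of these. With 1 library left out, Adh7 lay between -0.79 and -0.44, Adh1 between -0.76 and -0.48 and Adh6-ps1 between -0.36 and -0.10. Adh4 lay between -0.34 and 0.01 and Adh5 between -0.04 and 0.52. Adh4 changed sign without KO replicate 2 or WT replicate 3, and Adh5 without WT replicate 2. Adh7, Adh1 and Adh6-ps1 kept their sign.

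**Figure D3:**
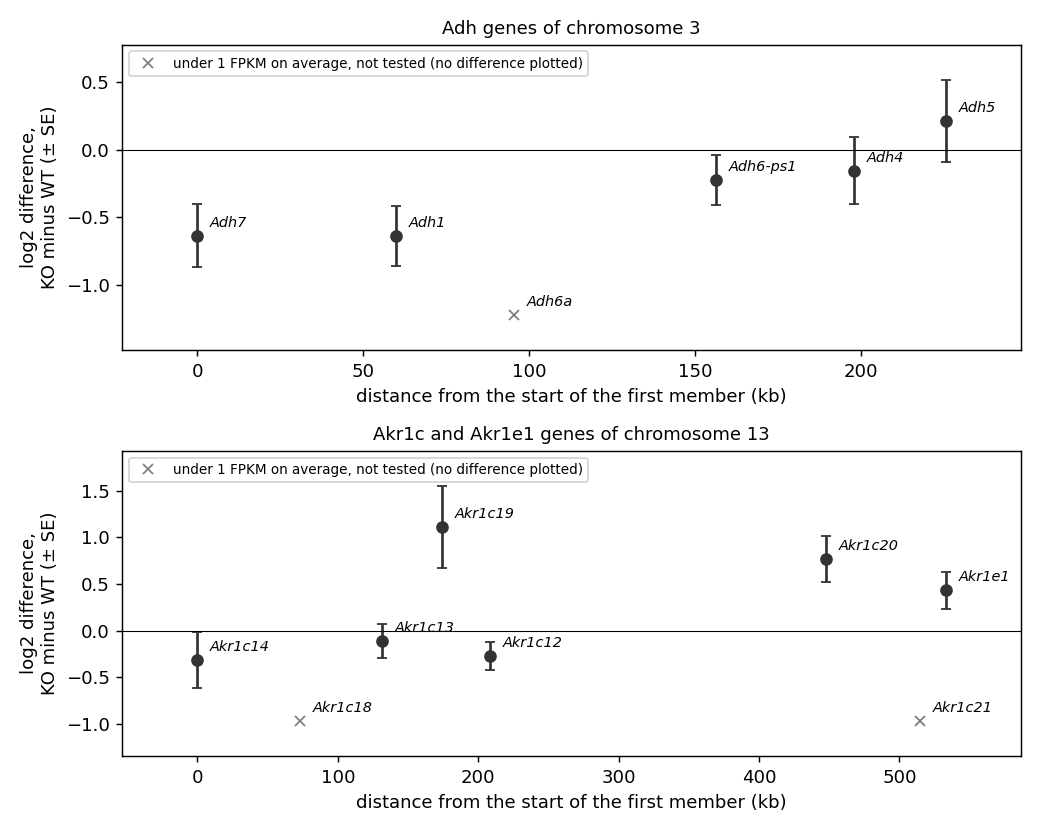
KO minus WT log2 difference (± SE, 3 libraries per group) of the Adh genes of chromosome 3 and the Akr1c and Akr1e1 genes of chromosome 13, by distance in kb from the start of the first member. Crosses mark genes that were not tested and stand at no difference value. Adh7 and Adh1 are the lowest of the first cluster, and Akr1c19 and Akr1c20 stand above their neighbours in the second.

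Ethanol is also oxidised by catalase (Cat) in peroxisomes and by the cytochrome P450 Cyp2e1 in the endoplasmic reticulum. Cat was 210, 172 and 177 FPKM in KO, against 269, 327 and 363 FPKM in WT, with no overlap (log2 difference -0.77, SE 0.20, limma adjusted p = 0.211). Cyp2e1 was 613, 306 and 405 FPKM in KO, against 1659, 925 and 2458 FPKM in WT, with no overlap (log2 difference -1.88, SE 0.42, limma adjusted p = 0.182). Adh1, Cat and Cyp2e1 were thus each lower in all KO than in all WT libraries, as were 5.44% of all genes tested. None of them passed the adjusted threshold. Of the 4 genes tested among Cat, Cyp2e1 and the acetyl-CoA synthetases Acss1, Acss2 and Acss3, 0 passed in either direction. Cat and Cyp2e1 lay under limma's unadjusted p of 0.05 and were lower in KO, as 3.99% of all genes tested were. In Acss2 (log2 difference -0.13) and Acss3 (log2 difference -0.65) the groups overlapped. Cyp2e1 is also a marker of pericentral hepatocytes, which surround the central vein. The 10 pericentral markers summed to 1910, 815 and 1407 FPKM in KO, against 2856, 1676 and 3906 FPKM in WT. These sums overlapped between the groups, and Cyp2e1 was the largest part of each WT sum. Of the 10 markers, 8 had a negative log2 difference. Under limma's unadjusted p of 0.05 lay 5 of the 10, all lower in KO, and 0 passed the adjusted threshold. These 5 were Slc1a2 (log2 difference -2.65), Lhpp (-2.31), Oat (-1.99), Cyp2e1 and Lgr5 (-0.68). Each was wholly lower in KO, as were 5.44% of all genes tested. Rgn (0.50) and Axin2 (0.31) had positive log2 differences. Rgn was 822, 336 and 559 FPKM in KO, against 387, 294 and 478 FPKM in WT. The part of the pericentral markers in the Adh1 value was not tested. In whole liver, fewer cells of a type and less RNA per cell cannot be told apart.

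**Figure D4:**
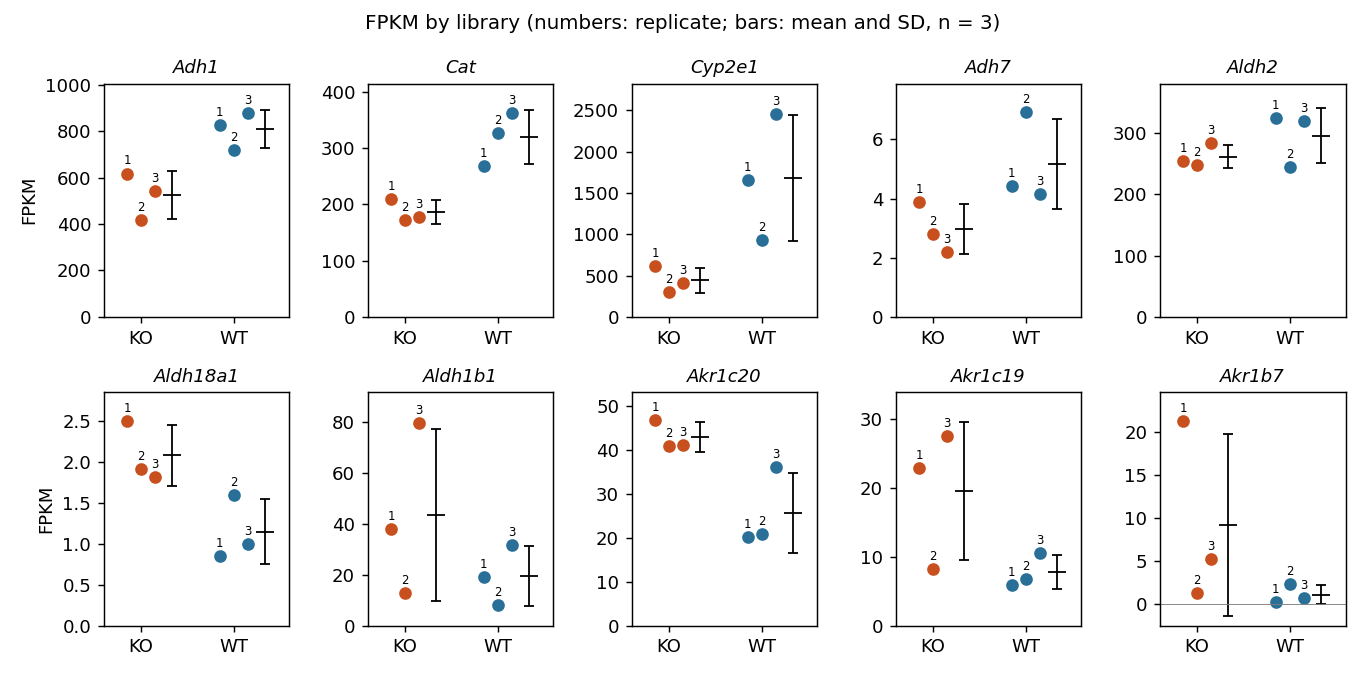
FPKM of 8 members and of Cat and Cyp2e1 in each library, KO left of WT, with the replicate number at each point and the mean and SD at its right (n = 3). Adh1, Cat, Cyp2e1 and Adh7 lie wholly lower in KO, Akr1c20 and Aldh18a1 wholly higher, and Aldh2, Aldh1b1, Akr1c19 and Akr1b7 overlap.

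Aldh2, the mitochondrial enzyme that oxidises acetaldehyde, was 254, 247 and 283 FPKM in KO, against 324, 244 and 319 FPKM in WT. The lowest library was WT replicate 2, and the groups overlapped. The log2 difference was -0.17 (SE 0.19, limma adjusted p = 0.684), with a 95% interval from -0.63 to 0.29. Summed over the 16 Aldh genes the level was 684, 645 and 720 FPKM in KO and 720, 627 and 778 FPKM in WT. Of the 11 Aldh genes tested, 5 had a positive and 6 a negative log2 difference, and 0 passed in either direction.

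Aldh1b1 encodes a mitochondrial relative of Aldh2 that also accepts acetaldehyde. It was 38.0, 12.9 and 79.6 FPKM in KO, against 19.1, 7.98 and 31.6 FPKM in WT. KO replicates 1 and 3 were above all WT libraries and KO replicate 2 was within the WT range (log2 difference 0.96, SE 0.71, limma adjusted p = 0.526). Without KO replicate 2 the difference was 1.64, without KO replicate 3 it was 0.37, and without WT replicate 2 it was 0.46. From high to low, the libraries stood in the order KO replicate 3, KO replicate 1, WT replicate 3, WT replicate 1, KO replicate 2 and WT replicate 2, which is the order of the summed proliferation markers. Aldh1b1 was the only member tested in that order, as were 78 of the 10956 genes tested (0.712%). This match was seen after the values were known, and the part of proliferation in the Aldh1b1 level was not tested.

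**Figure D5:**
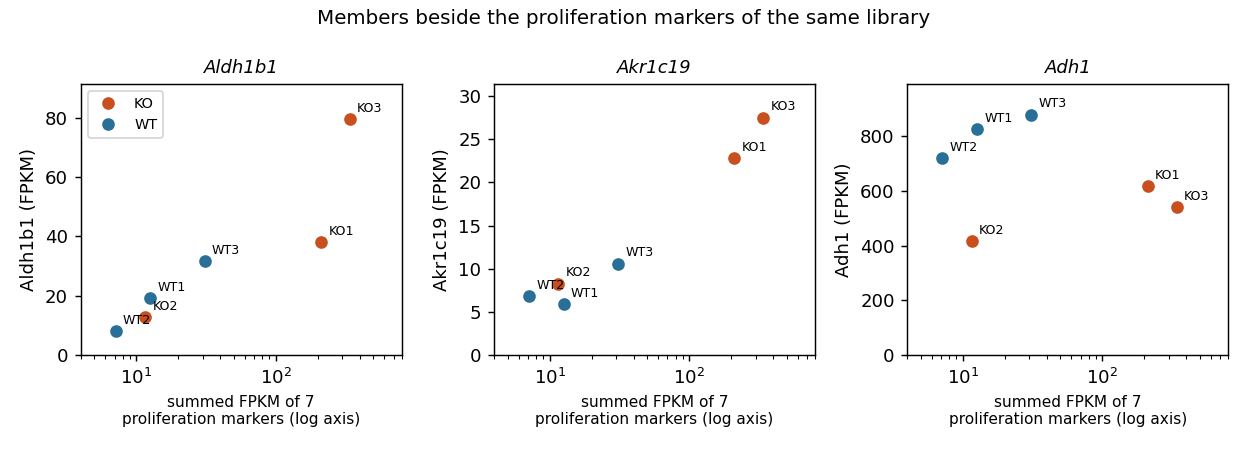
FPKM of Aldh1b1, Akr1c19 and Adh1 in each library against the summed FPKM of 7 proliferation markers in that library (log axis), with 3 KO and 3 WT points. Aldh1b1 is ordered as the markers are, Akr1c19 is high in KO replicates 1 and 3, and Adh1 separates KO from WT with KO replicate 2 the lowest.

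Aldh18a1, which makes the precursor of proline and ornithine from glutamate, was 2.51, 1.92 and 1.82 FPKM in KO, against 0.853, 1.602 and 0.995 FPKM in WT. It was the lowest of the tested members by mean level, and all KO libraries were above all WT libraries. The log2 difference was 0.53 (SE 0.20, limma adjusted p = 0.308). The pseudocount of 1 is large beside such levels, and with 0.1 the difference was 0.84. The 250 bases before its RefSeq start (GRCm38.p6, minus strand, chr19:40588464-40588713) are shown because, of the members under limma's unadjusted p of 0.05 that have a window, it alone holds GCGTG, at 3 places, in capitals.
Aldh18a1: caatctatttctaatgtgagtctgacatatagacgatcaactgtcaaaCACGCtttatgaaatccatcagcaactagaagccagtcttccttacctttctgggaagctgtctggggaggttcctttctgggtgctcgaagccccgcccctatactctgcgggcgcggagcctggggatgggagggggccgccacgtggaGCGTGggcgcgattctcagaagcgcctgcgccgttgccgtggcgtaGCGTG
Of the 28 members with a window in the table, 4 held GCGTG and 4 held TGACNNNGC. Among all RefSeq windows of this length, 28.2% hold GCGTG and 10.2% hold TGACNNNGC.

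Several other Aldh genes act in amino acid and lipid breakdown. Aldh8a1, of tryptophan breakdown, was 68.9, 80.9 and 74.3 FPKM in KO, against 69.8, 62.5 and 89.9 FPKM in WT. Aldh6a1, the methylmalonate semialdehyde dehydrogenase of valine breakdown, was 76.0, 52.4 and 62.4 FPKM in KO, against 65.2, 68.1 and 92.9 FPKM in WT. In both genes the KO libraries overlapped the WT libraries. Aldh7a1, of lysine breakdown, averaged 69.4 ± 22.3 FPKM in KO and 64.0 ± 10.2 FPKM in WT. Aldh9a1, of carnitine synthesis, averaged 50.2 ± 15.05 FPKM in KO and 48.9 ± 3.35 FPKM in WT. Aldh5a1, the succinate semialdehyde dehydrogenase, averaged 7.78 ± 0.979 FPKM in KO and 6.499 ± 1.20 FPKM in WT (SD, n = 3 each). The sign of the small differences of Aldh7a1, Aldh8a1 and Aldh9a1 turned when some libraries were left out, and that of Aldh7a1 and Aldh8a1 also after either rescaling. Aldh3a2, the fatty aldehyde dehydrogenase, was 49.2, 74.6 and 19.9 FPKM in KO, against 47.4, 75.9 and 46.0 FPKM in WT. KO replicate 3 was far below the other libraries, and the groups overlapped. The log2 difference was -0.38 (95% interval -1.51 to 0.75). It was 0.14 without KO replicate 3, -0.79 without KO replicate 2 and -0.15 without WT replicate 2. Aldh1a7, a mouse relative of the retinaldehyde dehydrogenases, averaged 46.8 ± 7.54 FPKM in KO and 50.7 ± 12.0 FPKM in WT, and 7.49% of its 50-base words occur in Aldh1a1. Aldh16a1 averaged 13.7 ± 2.90 FPKM in KO and 13.9 ± 0.220 FPKM in WT. The Aldh7a1 locus shares 10371 bases with Phax and the Aldh5a1 locus 4202 bases with 4932702P03Rik, which was at 0 throughout. Aldh6a1 shares 3061 bases of its locus with Ccdc176, and Aldh16a1 shares 141 with Pih1d1. How reads in these shared stretches were assigned is uncertain.

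The Akr genes summed to 317, 302 and 324 FPKM in KO, against 267, 266 and 301 FPKM in WT, and the groups were separated by the gap between KO replicate 2 and WT replicate 3 alone. Of the 9 tested, 5 had a positive and 4 a negative log2 difference and 0 passed. Akr1a1, which reduces glucuronate in mouse ascorbate synthesis, was 107, 145 and 117 FPKM in KO, against 114, 112 and 116 FPKM in WT. The WT libraries lay inside the KO range (log2 difference 0.09, SE 0.18, limma adjusted p = 0.813), and the sign turned after either rescaling and without KO replicate 2. Akr7a5, an aldehyde reductase that also acts on aflatoxin dialdehyde, averaged 27.5 ± 6.65 FPKM in KO and 28.4 ± 1.93 FPKM in WT. Akr1e1, the anhydrofructose reductase, averaged 13.6 ± 2.77 FPKM in KO and 9.76 ± 1.48 FPKM in WT (log2 difference 0.43, SE 0.19, limma adjusted p = 0.346).

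The Akr1c genes reduce ketosteroids and related carbonyl compounds and lie, with Akr1e1, in a cluster of 549.6 kb on chromosome 13 (mm10, 4059591 to 4609164). Its 6 tested members ranged in log2 difference from -0.32 to 1.11. Akr1c20 was 46.9, 40.9 and 41.1 FPKM in KO, against 20.2, 20.8 and 36.2 FPKM in WT. All KO libraries were above all WT libraries, and KO replicate 2 was at the level of KO replicate 3. The means were 43.0 ± 3.39 FPKM in KO and 25.7 ± 9.06 FPKM in WT (SD, n = 3 each; log2 difference 0.77, SE 0.25), and this was the member with the smallest limma adjusted p, 0.271. Its transcript shares 2.17% of its 50-base words with that of Akr1c6, a gene of the same cluster that was left out of the members. Akr1c6 was 300, 79.0 and 207 FPKM in KO, against 308, 275 and 478 FPKM in WT.

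Akr1c19 was 22.8, 8.29 and 27.5 FPKM in KO, against 5.88, 6.83 and 10.6 FPKM in WT. KO replicates 1 and 3 were above every WT library and KO replicate 2 was below WT replicate 3. The log2 difference was 1.11 (SE 0.44, limma adjusted p = 0.314). Without KO replicate 2 it was 1.61 (SE 0.25) with a limma adjusted p of 0.0433, in a comparison in which 1.93% of all genes passed (1.56% higher and 0.365% lower in KO). The proliferation markers were low in the same library, and their part in this value was not tested. The 250 bases before its RefSeq start (GRCm38.p6, plus strand, chr13:4233490-4233739) are shown as those of the member with the highest difference in the cluster, and neither motif is in them.
Akr1c19: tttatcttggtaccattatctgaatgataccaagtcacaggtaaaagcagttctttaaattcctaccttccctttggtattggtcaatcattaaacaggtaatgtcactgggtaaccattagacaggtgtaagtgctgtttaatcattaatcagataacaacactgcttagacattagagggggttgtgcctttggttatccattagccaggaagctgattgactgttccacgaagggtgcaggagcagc
The table ends Akr1c19 at 4248359, whereas GENCODE M21 extends an exon of it past that point. The next locus of the table, Marcksl1-ps4, starts 376 bases further on, and all of its 1043 bases lie inside that Akr1c19 exon. Marcksl1-ps4 was 3.89, 2.77 and 3.98 FPKM in KO, against 0.633, 0.396 and 0.175 FPKM in WT, a log2 difference of 1.70 (SE 0.21, limma adjusted p = 0.0594). All 3 KO libraries, KO replicate 2 included, were above all WT libraries. Reads of the pseudogene and of the extended Akr1c19 transcript cannot be told apart in this table.

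The remaining Akr1c genes tested had negative log2 differences with all libraries included. Without KO replicate 2 that of Akr1c14 was -0.02, that of Akr1c12 was -0.19 and that of Akr1c13 turned to 0.04, against -0.11 with it. Akr1c14, a hydroxysteroid dehydrogenase, was 40.5, 22.4 and 44.7 FPKM in KO, against 34.9, 41.8 and 55.0 FPKM in WT, and the groups overlapped (log2 difference -0.32, SE 0.30). Akr1c12 was 22.2, 17.0 and 19.01 FPKM in KO, against 24.1, 23.2 and 23.3 FPKM in WT, with no overlap and a log2 difference of -0.27 (SE 0.15, limma adjusted p = 0.410). Akr1c13 was 23.0, 16.2 and 22.8 FPKM in KO, against 24.0, 22.7 and 20.01 FPKM in WT, and the groups overlapped. These genes are nearly the same in sequence: their coding sequences are 96.2% identical over 969 bases in GENCODE M21, and 28.6% of the 50-base words of either transcript occur in the other. The longest run they share, 228 bases from base 34 of both coding sequences (GRCm38, chromosome 13), is shown because reads inside it cannot be given to one gene.
Akr1c12 and Akr1c13: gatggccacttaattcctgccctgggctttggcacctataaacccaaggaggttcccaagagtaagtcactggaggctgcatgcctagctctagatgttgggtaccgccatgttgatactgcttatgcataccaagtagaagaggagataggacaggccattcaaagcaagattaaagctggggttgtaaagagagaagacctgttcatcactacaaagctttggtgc
The difference between these genes is therefore uncertain, and their sum was 45.1, 33.2 and 41.8 FPKM in KO, against 48.1, 45.9 and 43.3 FPKM in WT, with overlap.

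The Akr1b members of chromosome 6, which leave out Akr1b8, were scarce in most libraries. Akr1b7, first known from mouse vas deferens and adrenal gland, was 21.2, 1.24 and 5.18 FPKM in KO, against 0.254, 2.33 and 0.703 FPKM in WT. Its largest log2 difference of all members, 1.81, had also the largest SE, 0.81 (limma adjusted p = 0.344). KO replicate 1 was far above the other libraries, and without it the log2 difference was 0.95. Akr1b10 was 0.574, 0.681 and 0.840 FPKM in KO, against 0.545, 0.584 and 0.903 FPKM in WT. Akr1b3, which encodes aldose reductase, was listed at 0 in KO replicates 1 and 2 and WT replicates 2 and 3, and at 3.14 in KO replicate 3 and 1.98 in WT replicate 1. Of the 50-base words of its transcript, 59.9% occur in transcripts of 4 other annotated genes, most of them in Gm6644, so how its reads were assigned is uncertain.

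Of the 11 members not tested, 8 had a value above 0 in some library. Akr1c18, which encodes a hydroxysteroid dehydrogenase that inactivates progesterone, was listed at 0 in all WT libraries and at 1.35, 0.355 and 0.986 FPKM in KO. Aldh3b2 was listed at 0 in all KO libraries, against 0.437, 0.163 and 0.393 FPKM in WT, and 24.2% of its 50-base words occur in other transcripts, mostly Aldh3b3. With the filter on low values removed, their limma adjusted p were 0.233 and 0.220. Aldh1a2, a retinoic acid-forming enzyme of mesenchymal cells, was 1.70, 0.209 and 0.772 FPKM in KO, against 0.215, 0.0716 and 0.0712 FPKM in WT. Its KO replicate 2 lay just below WT replicate 1. The 8 stellate and fibroblast markers summed to 117, 150 and 96.5 FPKM in KO and 126, 135 and 124 FPKM in WT, most of it Dcn. Of these 8 markers, 4 had a positive and 4 a negative log2 difference and 0 passed. Reln was wholly higher in KO, at 16.7, 21.9 and 14.6 FPKM in KO against 8.88, 9.51 and 10.501 FPKM in WT (log2 difference 0.80, SE 0.18, limma adjusted p = 0.179). Lrat, the retinol-storing enzyme of stellate cells, was 2.71, 1.92 and 1.01 FPKM in KO, against 2.68, 3.23 and 3.15 FPKM in WT, and the groups overlapped (log2 difference -0.52, SE 0.24). Their part in the Aldh1a2 value was not tested. Aldh1a3, Aldh3b1 and Akr1c21 were under 1.5 FPKM in every library, and their groups overlapped.

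Other carbonyl-handling enzymes gave no calls. Of 16 tested genes among 21 other carbonyl and quinone reductases, 0 passed, 14 had a positive and 2 a negative log2 difference, and their median was 0.18, close to the 0.15 of all genes. Ptgr1, which reduces lipid-derived enals, was 3.01, 2.13 and 2.57 FPKM in KO, against 1.96, 1.24 and 1.08 FPKM in WT (log2 difference 0.57, SE 0.20). Sord, which turns the sorbitol made by aldose reductase into fructose, averaged 154 ± 51.8 FPKM in KO and 216 ± 46.3 FPKM in WT (SD, n = 3 each). Of 15 tested genes among the aldehyde and amine oxidases, the glyoxalases and their neighbours in these pathways, 0 passed, 6 had a positive and 9 a negative log2 difference, and their median was -0.15. Esd, the formylglutathione hydrolase that follows Adh5 in formaldehyde clearance, was 75.4, 64.0 and 76.4 FPKM in KO, against 52.3, 55.2 and 55.2 FPKM in WT. Chdh, the choline dehydrogenase, was 19.5, 18.1 and 20.4 FPKM in KO, against 24.2, 28.6 and 31.98 FPKM in WT. Neither Esd (log2 difference 0.40, SE 0.15) nor Chdh (log2 difference -0.52, SE 0.16) passed the adjusted threshold. Among the tested genes of these lists, Esd, Dmgdh and Ptgr1 were wholly higher in KO, as were 16.7% of all genes tested. Chdh was wholly lower, as were 5.44% of all genes tested.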

How the data were processed

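The table holds 1 FPKM value per gene locus and library, as the authors deposited them, for 3 KO and 3 WT livers at 40 h after partial hepatectomy. Per the labels' protocols, RNA was taken from frozen liver and libraries were made with Illumina or Nugen methods. Per the submitters' processing notes, the tools were TopHat and edgeR and the builds were mm10 and mm9, with no roles given. The sources used here do not say whether strand was kept or how loci were filtered. Locus positions are those of mm10, counted from 1.

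Of 23847 loci, 312 carry LOWDATA in place of values and were left out. Values at the floor of 0.001 were set to 0. A total of 10956 loci with a mean of at least 1 FPKM were fitted on log2(FPKM + 1) with genotype as the only term (limma 3.58.1 under R 4.3.3, moderated by eBayes with trend, two-sided, Benjamini-Hochberg over all loci tested). The fit was tested on simulated data. FPKM was not rescaled, and a shift of abundant transcripts moves all values of a library. Relative depth came from whole-number ratios of genes under 0.3 FPKM (up to 6 reads, tolerance 0.02 on the log2 scale), which took 61.7% to 65.9% of such ratios. Words of 50 bases and coding identities were computed on GENCODE M21 with Biopython 1.88, and promoter windows are from RefSeq (GRCm38.p6), matched by symbol for 28 of 36 members.

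The members, lists, motifs and alternatives were chosen with earlier results of these data known. Values per library are given for members under limma's unadjusted p of 0.05, for the 3 most abundant of each family, for the 3 highest and 3 lowest differences, and for up to 2 genes of each partner list. Alternatives were another pseudocount, 2 other filters, 2 rescalings, no trend, a replicate block and each library left out.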

Additional observations from a re-analysis of the deposited data

How the results depend on the processing

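The call of 0 members held under 12 of 13 alternatives and was 1 (Akr1c19) without KO replicate 2. With any 1 library left out, the members called ranged from 0 to 1, the members whose groups do not overlap from 5 to 9 of 25 (5 with all libraries), where 28.2% to 38.5% of all genes did not overlap (22.1% with all libraries), and the calls over all genes from 0 to 211 (13 with all libraries, 2 higher and 11 lower in KO). The count of 211 was without KO replicate 2, and 171 of them were higher in KO. The count of 0 was without WT replicate 1, where 940 genes had limma's unadjusted p under 0.05, and the count was 11 without KO replicate 1, 1 without KO replicate 3, 2 without WT replicate 2 and 3 without WT replicate 3. With no filter on low values 6 genes were called in all. With a minimum mean of 5 FPKM 5 were called, and 3 of 22 members (13.6%) had groups that do not overlap, against 24.7% of all 6672 genes tested there. The cause of these changes was not tested. Same-numbered KO and WT libraries did not deviate together in every pair (correlation of deviations -0.08, 0.16 and 0.16 for replicates 1, 2 and 3). Pairs of unlike number ran from -0.26 to 0.17. With 3 libraries per group these values cannot tell whether the numbers pair the libraries. With a replicate block 47 genes were called, 10 higher and 37 lower in KO, and 0 members. The block took the SE of Aldh1b1 from 0.71 to 0.21 (limma adjusted p = 0.156) and that of Adh1 from 0.22 to 0.26 (limma adjusted p = 0.334).

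Of the 25 members tested, 14 kept their direction under every alternative run, among them Adh1 (-0.79 to -0.48), Adh7, Akr1c19 (0.80 to 1.61), Akr1c20 (0.61 to 1.03), Akr1b7, Aldh18a1 and Aldh1b1, and 11 changed sign at least once. Absolute depth is unknown, so the counting error of low genes such as Adh7 and Aldh18a1 cannot be given, and 3 libraries per group limit what can be called.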
